A study of Mus musculus with 4 samples.

Results

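Among the genes that changed when CID755673 was added to mouse embryonic stem cells, a set of 38 is described here. These genes encode developmental transcription factors, or proteins named with them, and lie outside the Hox clusters. They were taken from the 1593 genes of the authors' deposited table by symbol alone: forkhead (Fox), Sox, T-box, Pax, LIM, NK, Pitx, Barx, Six3, Pou, Rhox, Hand, Hey, Id, Tfap2 and nuclear receptor (Nr) genes. Antisense rows of the same names (4) were left out, as were Pou3f1, Foxd3, Foxa1, Sox17, Gata3 and Gata6. Developmental factors with other names, such as Otx2, Neurod1 and Evx1, are also in the table and are not members. The cells were 46C, a single mouse embryonic stem cell line with a green fluorescent reporter at the neural gene Sox1. Every sample was kept for 24 h in serum with PD0325901, a MEK inhibitor, at 1 µM. The PD group (2 libraries) had nothing more, and the PC group (2 libraries) also had CID755673, a protein kinase D inhibitor for which the labels state no dose. RNA came from whole cultures, so fewer cells of a type and less RNA per cell cannot be told apart.

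Transcription factors of these families bind DNA through a shared fold, such as the forkhead, homeodomain, T-box or HMG box, and set the identity of tissues in the embryo. In embryonic stem cells most of their genes are transcribed little, and many carry the repressive mark of Polycomb complexes until differentiation begins. A few act against differentiation factors, such as the Id proteins, which hold basic helix-loop-helix (bHLH) factors away from DNA.

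Promoter sequences are shown for 4 of the 8 members that passed the test of PC against PD, the forkhead gene Foxn4, the helix-loop-helix genes Id2 and Hey2 and the homeobox gene Nkx2-9, and for Nkx2-1, the neighbour of Nkx2-9 with values in the other direction. Each run is the 250 bases before the transcription start, 5′ to 3′ on the gene's strand, from RefSeq (build GRCm38.p6). Capitals mark GGGCGG on either strand, the GC box that Sp-family factors are known to bind.

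Foxn4: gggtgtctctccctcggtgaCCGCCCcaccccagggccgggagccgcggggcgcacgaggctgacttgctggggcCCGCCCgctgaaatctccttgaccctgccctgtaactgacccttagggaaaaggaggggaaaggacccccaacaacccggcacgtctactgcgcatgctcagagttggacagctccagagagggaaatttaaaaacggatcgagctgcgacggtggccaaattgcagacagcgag
Id2: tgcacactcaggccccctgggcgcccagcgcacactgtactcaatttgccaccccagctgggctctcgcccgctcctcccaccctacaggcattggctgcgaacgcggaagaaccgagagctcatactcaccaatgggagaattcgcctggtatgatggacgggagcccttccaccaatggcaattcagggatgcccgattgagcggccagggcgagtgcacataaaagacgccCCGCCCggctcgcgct
Nkx2-9: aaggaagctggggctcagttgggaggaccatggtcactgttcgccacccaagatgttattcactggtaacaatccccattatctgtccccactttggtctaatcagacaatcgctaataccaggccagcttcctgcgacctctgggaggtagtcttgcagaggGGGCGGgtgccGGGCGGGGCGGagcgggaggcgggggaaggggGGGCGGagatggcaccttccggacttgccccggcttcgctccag
Hey2: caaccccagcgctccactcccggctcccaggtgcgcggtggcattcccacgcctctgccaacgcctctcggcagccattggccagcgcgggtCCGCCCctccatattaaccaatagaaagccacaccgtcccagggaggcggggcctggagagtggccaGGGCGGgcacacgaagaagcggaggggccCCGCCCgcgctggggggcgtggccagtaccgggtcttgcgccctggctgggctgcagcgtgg
Nkx2-1: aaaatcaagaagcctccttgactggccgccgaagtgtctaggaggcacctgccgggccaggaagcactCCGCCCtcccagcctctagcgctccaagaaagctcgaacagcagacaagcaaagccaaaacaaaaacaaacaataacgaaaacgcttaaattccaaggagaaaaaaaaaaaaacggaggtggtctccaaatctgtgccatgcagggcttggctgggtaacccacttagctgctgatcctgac

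The Foxn4 window lies at chr5:114273762-114274011, that of Id2 at chr12:25096093-25096342, Nkx2-9 at chr12:56613285-56613534, Hey2 at chr10:30842784-30843033 and Nkx2-1 at chr12:56536909-56537158, all on the minus strand. They hold 2, 1, 4, 3 and 1 matches to GGGCGG in that order, and 2 of the 4 in Nkx2-9 share a base. Of the 38 members 27 matched the RefSeq promoter table by symbol, and 21 of the 27 (77.8%) held GGGCGG, against 45.7% of 966 listed genes and 35.4% of 27025 genes in the promoter table. The share was 13 of 16 among members with higher values in PC and 8 of 11 among those with lower values, so the box was common in both directions. The windows of members had a median GC content of 60.0%, against 56.4% for listed genes and 52.4% for all genes. CCAAT was found in 37% of members and 37.5% of all genes, TATAAA in 7.41% and 14.3%, CACGTG in 7.41% and 6.86%, and TGGGAA in 22.2% and 24.1%. TGACCT, part of the motif of nuclear receptors, was in 1 of the 27 members and 15.8% of all genes. Both strands were searched, and a match is a description of letters only.

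**Figure D1:**
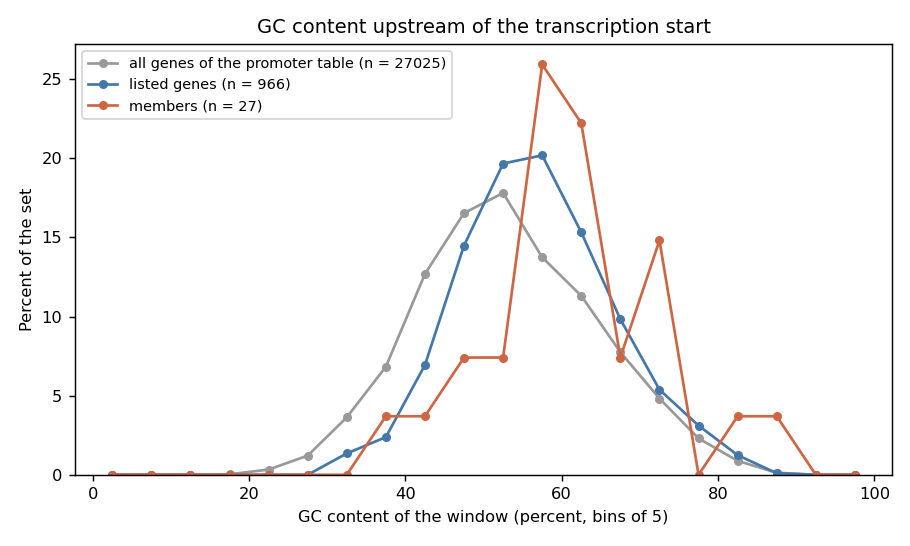
GC content (percent, horizontal axis) of the 250 bases before the transcription start, as the percent of each set per bin (vertical axis), for 27 members, 966 listed genes and all 27025 genes of the RefSeq promoter table. The members' median of 60.0% lies to the right of the median of 52.4% for all genes.

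Of the 38 members, 21 had higher and 17 had lower values in PC, and 8 passed the test: Foxn4, Id2 and Pitx3 rose, and Nkx2-9, Tbx4, Hey2, Pax8 and Foxb1 fell. The test was limma on the log2 of normalized reads plus 1, 2-sided, with a threshold of 0.05 on the adjusted p. P-values were adjusted by Benjamini and Hochberg's method for 31432 genes, the number inferred as tested by the authors. Normalized reads are read counts divided by the authors' size factor for the library. The table was selected by its authors on these same libraries, with no absolute log2 change below 1 and no p above 0.0498. That a member differs is thus a property of the table, and the counts below describe which members differed most firmly. The test called 31.1% of all listed genes, 11.2% as higher and 19.8% as lower, against 8 of 38 members (21.1%), 3 higher and 5 lower. Higher values were found in 55.3% of members and 38.5% of all listed genes. Of the 38 members, 26 had in the authors' deposited table a false discovery rate under 0.05, 13 in each direction, beside 70.2% of all listed genes. PC and PD libraries did not overlap for any of the 38 members, which was so for 99.7% of the table.

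**Figure D2:**
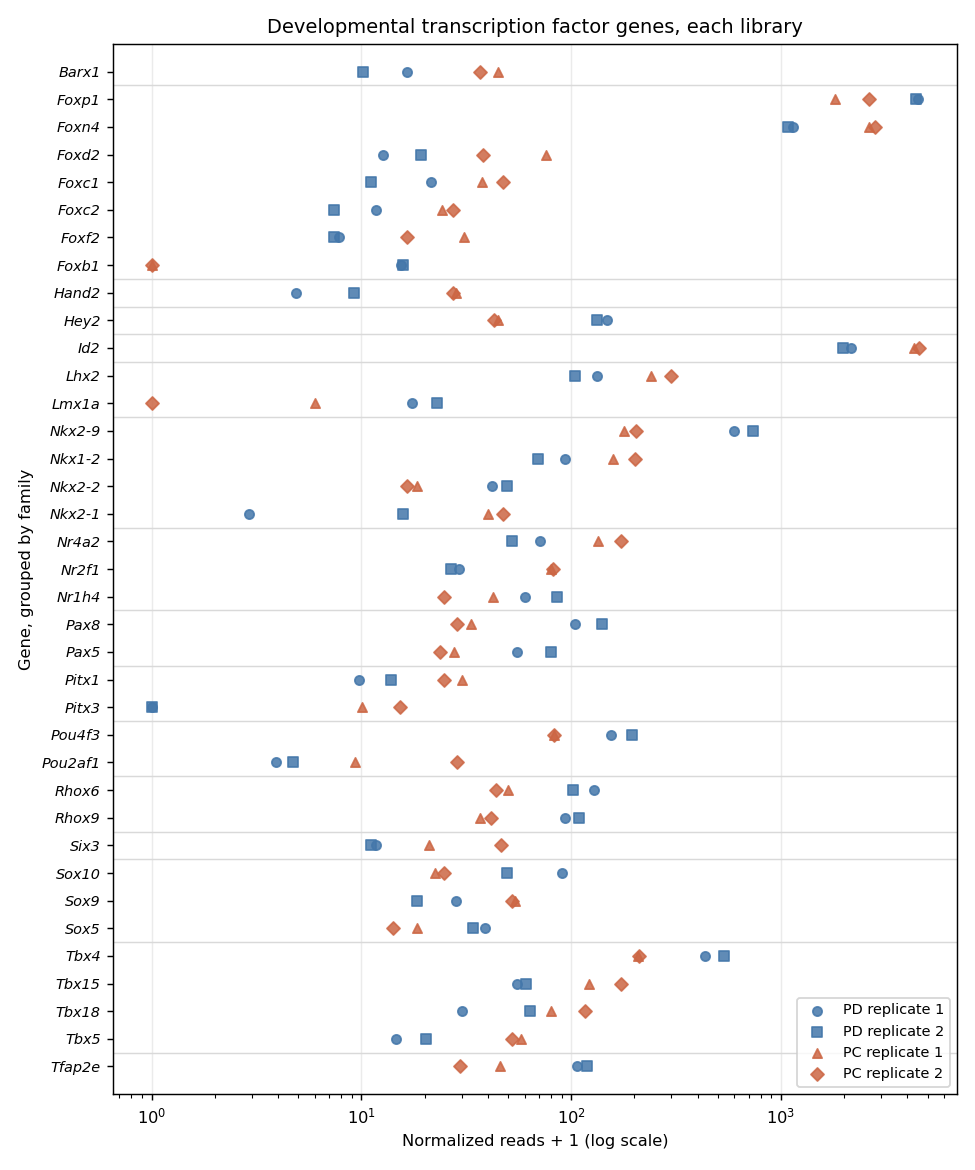
Normalized reads plus 1 (log scale, horizontal axis) of 37 members (rows, grouped by family) in each of the 4 libraries, circles and squares for PD, triangles and diamonds for PC. Both PC libraries lie on 1 side of both PD libraries for each of the 37, and Foxb1 and Pitx3 have a group at 0 reads.

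Most members were rare transcripts. Their median over the 4 libraries was 45.7 normalized reads, against 55.1 for all listed genes. A mean under 50 was found for 20 of the 38, a share near that of the table (763 of 1593). The 21 with higher values had a median of 35.1 normalized reads and the 17 with lower values 69.1. Among the 10 members with a mean of at least 100 the test called 4, where it called 62% of 597 listed genes at that level. It called 2 of 8 members from 50 to under 100 normalized reads, beside 12% of the table, and 2 of 20 below that, beside 12.7%. The size of the differences was that of the table, with a median absolute log2 change of 1.45 for members and 1.47 for all listed genes. Reads on the members summed to between 10281 in PC replicate 2 and 13055 in PC replicate 1.

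**Figure D3:**
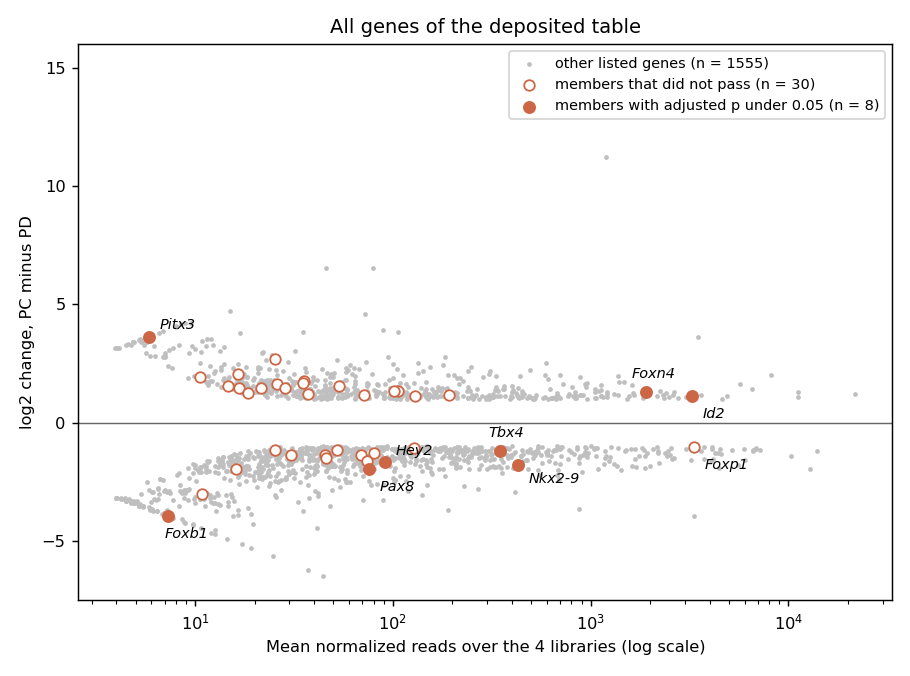
Mean normalized reads over the 4 libraries (log scale, horizontal axis) against the log2 change, PC minus PD (vertical axis), for the 38 members among the 1593 listed genes. No gene lies between -1 and 1 because the table was selected on fold change, and the 8 members that passed include the rare Foxb1 and Pitx3 as well as the abundant Foxn4 and Id2.

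These calls depended on each library. With either PD library left out Foxb1 was the 1 member called, and with either PC library left out it was Pitx3, genes whose spread rests on a group at 0 reads in both libraries. No member could change direction in these fits, because the PC and PD libraries did not overlap for any member. With reads scaled to the same total over the listed genes, the median log2 change of the table moved from -1.17 to -0.89 and the share of calls that were higher from 36.2% to 51.4%. Under that scaling 4 members were called higher (Foxn4, Id2, Pitx3 and Lhx2) and 2 lower (Nkx2-9 and Foxb1). No member changed sign, which a shift of that size could not bring about in a table selected on fold change.

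**Figure D4:**
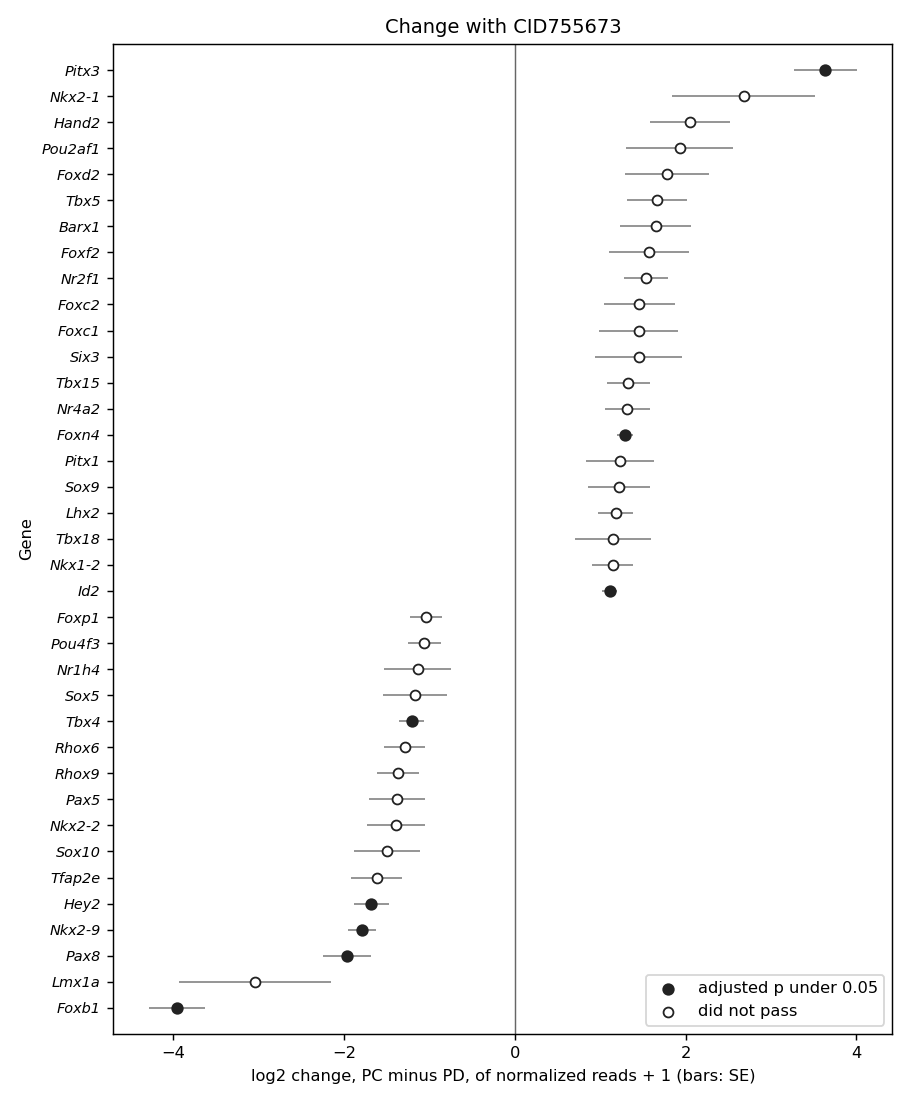
The log2 change of normalized reads plus 1, PC minus PD (horizontal axis, bars give the SE from limma), of 37 members in order of size. Filled points mark the 8 with an adjusted p under 0.05; the SE of the abundant Foxn4 and Id2 was 0.09, and that of the rare Nkx2-1 was 0.84.

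Among helix-loop-helix regulators, Id2 rose and Hey2 fell. Id2 (ENSMUSG00000020644), an inhibitor of bHLH factors and a target of BMP signalling, rose from 2143.0 and 1971.4 normalized reads in PD to 4319.7 and 4549.0 in PC. The lowest PC library stood well above the highest PD library, a 2.16-fold ratio of the means (log2 change 1.11, SE 0.09, limma with Benjamini-Hochberg adjusted p = 0.0142). Hey2 (ENSMUSG00000019789), a bHLH repressor that Notch signalling switches on, had 146.4 and 132.0 normalized reads in PD and 43.9 and 41.6 in PC. It was 3.25-fold lower with tight replicates (log2 change -1.68, SE 0.21, limma with Benjamini-Hochberg adjusted p = 0.0342). Hand2, a bHLH factor of heart and limb, stood at 3.9 and 8.2 normalized reads in PD against 27.3 and 26.2 in PC without passing (limma with Benjamini-Hochberg adjusted p = 0.228). Its exons overlap those of Hand2os1 on the other strand, and without a stated strand setting their reads cannot be told apart.

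Of all protein-coding genes 5.52% were listed, a share to set beside the pathways of these regulators. Pathway counts here cover only the genes looked for, and other genes of a pathway can be in the table. Of 25 genes of the Notch pathway 3 were listed, all lower, and 2 fell, Hey2 and the ligand gene Jag1. Jag1 was at 1413.8 and 1442.6 normalized reads in PD and at 727.4 and 641.2 in PC (log2 change -1.06, SE 0.11, limma with Benjamini-Hochberg adjusted p = 0.0182). The coactivator gene Maml2 had 47.1 ± 0.8 (SD, n = 2) in PD, 19.7 ± 12.6 in PC, and missed the threshold. The median log2 change of the 3 Notch genes was -1.37, beside -1.17 for all listed genes and -1.53 for listed genes with lower values. Of 23 genes looked for in the BMP pathway Id2 was the 1 listed. Outside that list, the ligand gene Bmp8a was in the table with lower values and did not pass (log2 change -1.55). Of 26 bHLH partners and proneural factors 3 were listed: Neurod1 fell with a log2 change of -2.01 (SE 0.11), while Atoh1 (28.1 and 30.2 in PD, 13.3 and 10.7 in PC) and Hand2 did not pass.

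Forkhead genes were the largest family, with 7 members, 5 of them with higher values. Foxn4 (ENSMUSG00000042002), a factor of retinal and spinal cord progenitors, rose from 1136.5 and 1076.0 normalized reads in PD to 2627.1 and 2803.9 in PC. The 2 groups were far apart beside the spread within each, and the ratio of means was 2.45 (log2 change 1.29, SE 0.09, limma with Benjamini-Hochberg adjusted p = 0.0132). Foxp1, a repressor with splice forms that differ between stem cells and other cells, had the highest mean of all members in PD, while Id2 and Foxn4 were above it in PC. It had 4490.6 and 4405.6 normalized reads in PD and 1801.1 and 2613.6 in PC, and it did not pass (log2 change -1.04, SE 0.19, limma with Benjamini-Hochberg adjusted p = 0.106). Before division by the size factors, the PC libraries held 2174 and 2197 reads of Foxp1. Why it did not pass was not tested. Foxb1 (ENSMUSG00000059246), a factor of the early brain, fell from 14.5 and 14.7 normalized reads to no read in either PC library. Set against 3 reads in each of those libraries, the floor used here, that is at least 4.82-fold lower (limma with Benjamini-Hochberg adjusted p = 0.0142). The call rests on 15 and 16 reads in PD. Such a floor covers counting error only, and exons of Foxb1 overlap those of B230323A14Rik on the other strand.

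The other 4 forkhead members were mesenchymal and mesodermal factors at low levels, and none passed. Foxc1 was at 15.2 ± 7.3 (SD, n = 2) in PD and 41.4 ± 7.0 in PC, and its adjacent gene on chromosome 13, Foxf2, at 6.6 ± 0.3 and 22.6 ± 10.2. Foxc2 had 8.5 ± 3.0 in PD and 24.7 ± 2.1 in PC. Foxd2 had 11.6 and 18.3 in PD, with 74.6 in PC replicate 1 and 36.9 in PC replicate 2. All 4 had higher values in PC, with log2 changes from 1.45 for Foxc1 to 1.78 for Foxd2.

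NK homeobox genes went both ways. Nkx2-9 (ENSMUSG00000058669), a factor of the ventral neural tube, fell from 594.4 and 734.1 normalized reads in PD to 177.3 and 203.4 in PC. Both PC libraries were far under both PD libraries, and the means differed 3.49-fold (log2 change -1.79, SE 0.16, limma with Benjamini-Hochberg adjusted p = 0.0145). Nkx2-1, the thyroid, lung and forebrain factor, is the next protein-coding gene on chromosome 12 in GENCODE M21 and had values in the other direction, 1.9 and 14.7 normalized reads in PD and 38.9 and 46.4 in PC. The PD libraries of Nkx2-1 were 2 and 16 reads, and it did not pass (limma with Benjamini-Hochberg adjusted p = 0.54), with a log2 change of 1.47 without PD replicate 1 and 3.89 without PD replicate 2. Nkx1-2, a gene of the posterior neural plate, was at 92.1 and 68.7 normalized reads in PD and 157.4 and 199.9 in PC (limma with Benjamini-Hochberg adjusted p = 0.165). Nkx2-2, of the ventral spinal cord and pancreas, was lower in PC, with 44.7 ± 5.5 in PD against 16.4 ± 1.4, and missed the threshold too.

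Among LIM, Pitx, Barx and Six3 homeobox genes 1 passed. Pitx3 (ENSMUSG00000025229), a factor of the lens and of dopamine neurons, had no read in either PD library and rose to 9.1 and 14.3 normalized reads with CID755673. Against the same floor this is at least 4.13-fold higher (limma with Benjamini-Hochberg adjusted p = 0.0195). That call rests on 11 and 12 reads, and the false discovery rate of Pitx3 in the authors' deposited table was 0.064. Its exons share 10 bases with Elovl3 on the other strand. Lhx2, a LIM factor of the eye and forebrain, was at 131.9 and 103.6 normalized reads in PD and 238.6 and 298.6 in PC, a 2.28-fold ratio of the means that did not pass (limma with Benjamini-Hochberg adjusted p = 0.0926). Lmx1a, of the midbrain floor plate, stood on the other side, at 19.2 ± 3.9 (SD, n = 2) normalized reads in PD and 2.5 ± 3.5 in PC, also without passing.

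Pitx1, a hindlimb factor, was at 8.7 and 12.8 normalized reads in PD and 29.0 and 23.8 in PC. Six3, a forebrain and eye factor, was at 10.7 and 10.1 in PD and 19.9 and 45.2 in PC, so the PC libraries stood far apart. Barx1, of stomach and facial mesenchyme, was at 15.5 and 9.2 in PD and 43.9 and 35.7 in PC. None of these 3 passed, and exons of Six3 overlap those of its antisense gene Six3os1.

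Pou4f3 and both Rhox members had lower values. Pou4f3, a factor of inner ear hair cells, was at 153.2 and 193.4 normalized reads in PD and 82.0 and 82.1 in PC (log2 change -1.06, SE 0.19, limma with Benjamini-Hochberg adjusted p = 0.115). Rhox6 and Rhox9, of a reproductive homeobox cluster on chromosome X, had close values: Rhox6 was at 127.0 and 100.8 in PD and 48.9 and 42.8 in PC. Rhox9 was at 92.1 and 108.1 in PD and 35.6 and 40.4 in PC. The log2 changes were -1.29 (SE 0.24) and -1.37 (SE 0.25), and neither passed (limma with Benjamini-Hochberg adjusted p = 0.122 and 0.105). They belong to a family of close copies, so reads may be shared between members, and 2 of 34 Rhox genes were listed. Pou2af1 encodes a lymphoid coactivator of Pou factors and not a DNA-binding factor itself, and stood at 3.3 ± 0.5 in PD and 17.8 ± 13.5 in PC on 3 to 23 reads per library.

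The T-box family had 4 members, and the 1 that passed was the 1 with lower values. Tbx4 (ENSMUSG00000000094), a factor of hindlimb and lung mesenchyme, fell from 435.4 and 535.2 normalized reads in PD to 206.3 and 209.4 in PC. The PC libraries were nearly equal and well under both PD libraries (log2 change -1.21, SE 0.15, limma with Benjamini-Hochberg adjusted p = 0.0314). Tbx15, of limb and skeleton mesenchyme, was at 54.3 and 59.6 normalized reads in PD and 121.0 and 172.5 in PC (limma with Benjamini-Hochberg adjusted p = 0.122). Tbx18, of the epicardium and urinary tract, was at 29.1 and 62.3 in PD and 79.5 and 115.4 in PC, with a wide spread in both groups (limma with Benjamini-Hochberg adjusted p = 0.933). Tbx5, the forelimb and heart factor closely related to Tbx4, was 16.4 ± 4.0 in PD against 53.7 ± 3.7 in PC, without passing.

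Both Pax members had lower values. Pax8 (ENSMUSG00000026976), a factor of kidney and thyroid, fell from 102.8 and 139.3 normalized reads in PD to 32.3 and 27.4 in PC, 4.06-fold by the means (log2 change -1.97, SE 0.28, limma with Benjamini-Hochberg adjusted p = 0.0496). The p of Pax8 lies at the threshold, it did not pass with a pseudocount of 0.1, and its exons overlap those of Gm13415 on the other strand. Pax5, the B cell factor, had 66.6 ± 17.3 in PD against 24.6 ± 2.8 in PC, without passing. Sox10, a neural crest factor, was at 89.2 and 48.6 normalized reads in PD and 21.5 and 23.8 in PC, and the distance between the PD libraries was large (limma with Benjamini-Hochberg adjusted p = 0.332). Sox5 had 35.4 ± 3.4 in PD against 15.2 ± 3.0 in PC. Sox9, which acts with Sox5 in cartilage, was on the other side, with 22.3 ± 6.9 against 52.1 ± 1.3, and neither passed. Tfap2e, an AP-2 factor of the olfactory system, was at 105.7 and 118.2 in PD and 44.7 and 28.6 in PC (limma with Benjamini-Hochberg adjusted p = 0.122).

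None of the 3 nuclear receptor members passed. Nr4a2, an orphan receptor of dopamine neurons and an early-response gene, was at 69.8 and 51.3 normalized reads in PD and 132.6 and 172.5 in PC (limma with Benjamini-Hochberg adjusted p = 0.138). Nr2f1, an orphan receptor that retinoic acid is known to induce, was at 28.1 and 25.7 in PD and 79.5 and 80.9 in PC, a 2.98-fold ratio with nearly equal replicates (limma with Benjamini-Hochberg adjusted p = 0.0926). Nr1h4, the bile acid receptor, was lower, at 59.2 and 84.3 in PD and 41.4 and 23.8 in PC. Of 24 genes of the retinoic acid pathway 5 were listed, 4 with higher values, Nr2f1 among them. Of these Stra8 and Tgm2 rose, with log2 changes of 3.61 (SE 0.16) and 1.44 (SE 0.14). The median log2 change of the 5 was 1.44, beside -1.17 for all listed genes and 1.40 for listed genes with higher values. Retinoic acid genes outside that list went both ways in the table. Rarres1, with a mean of 5.93 normalized reads, fell (log2 change -3.65) and Rbp2 (-1.50) did not pass, while Cdx1 rose (2.34).

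Per length the order of levels among members changed between the groups. Dividing by the exonic length in GENCODE M21, Id2 led in both groups, at 843.8 ± 49.8 (SD, n = 2) normalized reads per kb in PD and 1818.9 ± 66.5 in PC. In PD the next level was that of Nkx2-9 (525.5 ± 78.1 per kb), followed by Foxn4 (328.2 ± 12.7) and Foxp1 (323.5 ± 4.4), whose levels did not differ beyond their spread. In PC Foxn4 came after Id2, at 805.5 ± 37.1 per kb. Foxp1 (160.5 ± 41.8) and Nkx2-9 (150.6 ± 14.6) followed in PC and did not differ beyond their spread, and neither did Tbx4 (61.1 ± 0.6) and Lhx2 (61.1 ± 9.7). Exonic length covers all annotated transcripts (13751 bases for Foxp1), and which transcripts these libraries held was not tested.

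**Figure D5:**
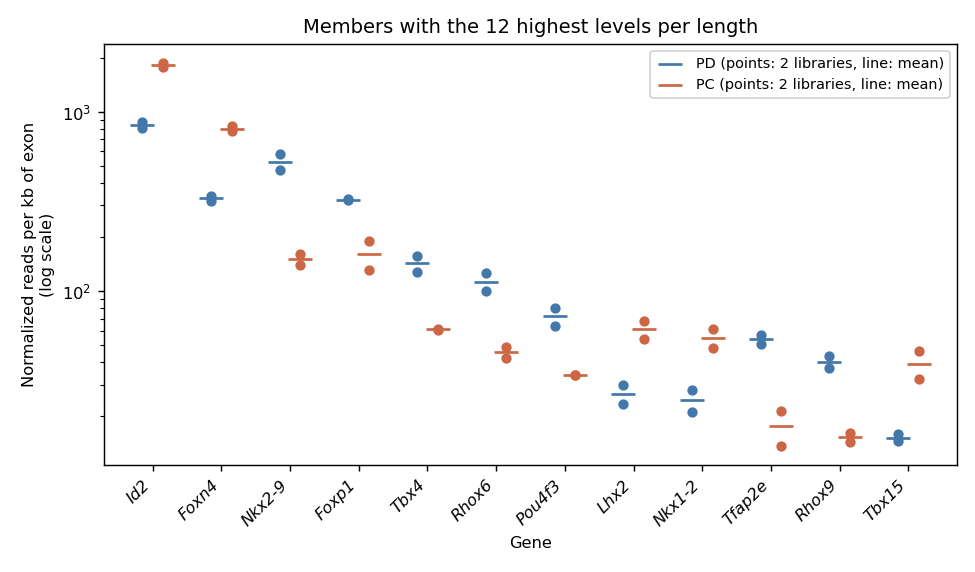
Normalized reads per kb of exon (log scale, vertical axis) of the 12 members with the highest mean level per length, points for the 2 libraries of a group and lines for the group means. Nkx2-9 was above Foxn4 in PD (525.5 and 328.2) and below it in PC (150.6 and 805.5).

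By name pattern, 278 protein-coding genes of GENCODE M21 belong to these families, and 44 of them (15.8%) were listed, counting the 6 genes left out here. Of all 21951 protein-coding genes 5.52% were listed. The pattern goes by name, so a few of the 278 are not transcription factors. The share was 9 of 44 Fox, 4 of 19 Sox, 4 of 13 Tbx, 4 of 14 Nkx, 4 of 16 Pou, 2 of 9 Pax, 3 of 26 Nr and 2 of 3 Pitx genes. No gene named Dlx, Irx, Msx, Meis, Neurog, Olig, Tcf, Ets, Etv or Gli appears in the table, and those genes are not analysed here. In the annotation columns of the authors' deposited table, 33 of the 38 members (86.8%) carried the term for sequence-specific DNA-binding transcription factor activity, against 7.53% of all listed genes. Those without it were Pou2af1, Nkx1-2, Nkx2-9, Rhox6 and Rhox9. Exons of 14 members overlap those of another gene in GENCODE M21, among them 3 of the 8 that passed (Pitx3, Pax8 and Foxb1).

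Further lists give other pathways, to be read beside the whole table. In it 980 of 1593 genes had lower values, and 19.8% were called lower and 11.2% higher. The median log2 change was -1.17 for all listed genes, -1.53 for those with lower values and 1.40 for those with higher values. Of 17 targets looked for in the ERK pathway 6 were listed, all lower, and 3 fell, with a median log2 change of -1.32. None of the Etv genes on that list was in the table. Phosphatase genes of the Dusp family outside that list went both ways. Dusp9 rose (log2 change 1.21) and Dusp27 fell (-1.54), while Dusp8 (1.08) and Dusp26 (-1.15) did not pass. Of 24 genes looked for in the Wnt pathway 5 were listed, of which Cdx1 rose and 4 did not pass, with a median log2 change of -1.26. Wnt ligand genes outside that list were in the table too. Wnt6 fell (log2 change -1.43), while Wnt8b (-1.69) and Wnt16 (1.36) did not pass. Of 15 hedgehog genes Ihh was the 1 listed, with 43.8 ± 2.9 (SD, n = 2) normalized reads in PD against 17.7 ± 8.6, and missed the threshold. Of 18 pluripotency factors Utf1 and Lin28a were listed, and both fell: Utf1 had 7052.3 ± 576.9 normalized reads in PD and 1840.4 ± 75.5 in PC, and Lin28a had 8206.3 ± 185.4 and 3780.7 ± 171.8.

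Some markers of other cell types were in the table, where every gene differs by selection, and most of the markers looked for were not listed. Among 10 markers of extra-embryonic endoderm the table held Gata6 and Sox17, both with higher values, with summed levels of 209.9 to 221.1 normalized reads in PD and 466.4 to 511.5 in PC, and Gata6 rose. Listed markers of other types had lower values in PC. For trophoblast this was 1 of 9 (Gata3), with 380.1 to 384.0 normalized reads in PD and 133.2 to 194.7 in PC. For fibroblasts it was 1 of 7 (Col3a1), with 89.2 to 113.6 in PD and 38.9 to 48.8 in PC. Muscle had 3 of 6 (Myh6, Myh7 and Tnnt2), which summed to 626.0 to 811.6 in PD and 293.8 to 304.1 in PC. Endothelium had 2 of 6 (Tek and Kdr), which summed to 3342.5 to 3526.6 in PD and 1334.7 to 1498.7 in PC. Of these 7 genes Myh7 and Tek fell, and no listed marker was at 0 in any library. Of 6 neural progenitor and 7 pluripotency markers 0 were listed. On the lists used here, the genes typical of the labelled stem cells that could be read were Utf1 and Lin28a, above. Both were detected in all 4 libraries, and stem cell genes outside these lists are not analysed here. The part of other cell types in the members' values was not tested.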

How the data were processed

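RNA sequencing of 4 libraries was analysed, 2 per group, grouped by the titles in the labels. Per the file headers and values, the deposited log2 columns are the log2 of read counts divided by a size factor per library, plus 1: every value came out whole within 0.001 reads. The authors' p-values and false discovery rates stand beside them. From the ratio of these, 31432 genes tested were inferred, as the number at which most of the implied ranks came out whole (88.3%). Alignment with Bowtie 0.12.2 and the mouse build mm9 are credited to the submitters' processing notes. The sources used here give no counting tool, strand setting, annotation or test. limma 3.58.1 in R 4.3.3 (trended prior, 2 residual degrees of freedom, no replicate block, mean of at least 1 normalized read) was fitted to all 1593 listed genes, and the adjustment counted unlisted genes as having larger p-values. That does not hold for the authors' p-values, where the listed genes reach rank 8099 and unlisted genes fill the other ranks. Ranks are thus understated, which by itself makes an adjusted p too large. Because all listed genes were selected for a small p in these libraries, their spread can be too small. The script was tested on simulated data that were not selected on fold change or p, which does not test the effect of the table's selection. 1 member is counted but not reported by name here, and every other member is named; library values are given for called members, those with a mean of at least 50 normalized reads and the highest of each family. Members, lists and tests were chosen with earlier results of these data known. Whether replicates are separate cultures is not stated in the labels; p-values then measure only how far these libraries differ, and that spread may be technical. Reads on listed genes ranged from 433684 to 683777 per library, and the full depth is unknown. Replicates differed by more than sampling noise (chi-square per degree of freedom 7.12 in PD and 6.81 in PC). Gene models came from GENCODE M21 (GRCm38), matched by gene ID for all 38 members, and promoters from RefSeq.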

Additional observations from a re-analysis of the deposited data

How the results depend on the processing

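No member changed direction in the alternatives fitted (another pseudocount, filter, prior, scaling, voom, the replicate block and each library left out). This was nearly fixed in advance, because the table was selected on fold change and the PC and PD libraries did not overlap for any member. The filter, prior and block leave the log2 change itself as it was. Counts of calls moved, given here for all listed genes and for members in all, higher and lower, against 495, 8, 3 and 5. A constant prior for the spread gave 1, 0, 0 and 0; at an unadjusted p under 0.05 the fit reported held 38 of 38 members and 1541 of 1593 listed genes, a rate set by how the table was selected. With the replicate block there were 1176, 25, 13 and 12 calls. The replicate numbers share no source in the labels, and same-numbered samples did not deviate together (r = -5.75e-05 over 1593 genes), so the block has no stated meaning. Leaving out a library gave 33 to 61 genes, 1 member, 0 to 1 higher and 0 to 1 lower. Reads without size factors gave 64, 2, 1 and 1, and reads scaled to the same total gave 2 members lower. Adjustment over the listed genes alone called 1536, 38, 21 and 17, which the selection of the table nearly fixes. The authors' false discovery rate gave 1119, 26, 13 and 13, with 7 of the 8 called members among them. The cause of these shifts was not tested. A filter at a mean of 10 normalized reads removed Foxb1 and Pitx3 and called 9 members, adding Foxp1, Lhx2 and Nr2f1. The 20 members with a mean under 50 normalized reads rest on few reads, and whether depth or a low level sets this was not tested.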

Other observations

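Antisense transcripts that carry the names of developmental factors were listed in 4 rows, and all 4 had higher values in PC. Tbx3os1, which lies beside the T-box gene Tbx3, rose from 523.6 and 596.6 normalized reads in PD to 1579.9 and 1837.9 in PC (log2 change 1.61, SE 0.13, limma with Benjamini-Hochberg adjusted p = 0.0142). Both PC libraries stood far above both PD libraries, and Tbx3 itself is not analysed here. Foxl2os rose from 29.1 and 28.4 normalized reads in PD to 103.6 and 95.2 in PC, with an adjusted p that rounds to the threshold and lies just under it (limma with Benjamini-Hochberg adjusted p = 0.05). Six3os1 was at 36.4 ± 6.1 (SD, n = 2) in PD and 94.6 ± 14.3 in PC, and Foxd2os at 16.5 and 27.5 in PD and 48.1 and 63.0 in PC, and neither passed. Their sense partners Six3 and Foxd2 also had higher values in PC. Exons of Six3 and Six3os1 overlap on opposite strands, so their reads cannot be told apart without a strand setting, which no source used here gives.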
